A study of Schizosaccharomyces pombe with 24 samples.

Results

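The cytosolic ribosomal protein genes of *Schizosaccharomyces pombe* are described here in WT, in 6 mutants of H2B and in the libraries labelled *set1*Δ. A gene was taken when its pathway annotation in the deposited tables named the ribosome (KEGG ko03010), its symbol began with *rpl*, *rps* or *rpp*, and it was not mitochondrial. This gave 138 of 5195 genes: 76 of the large subunit, 55 of the small subunit and 7 of the P stalk. All 138 had at least 145 counts in every library, so every member was tested in every comparison. The study sequenced poly(A) RNA from 24 libraries, 3 for each of 8 genotypes, to ask whether altered transcript levels might lie behind the unstable genomes of strains with cancer-associated H2B mutations. The WT strain was *h*+ *ade6-M216 leu1-32 ura4-D18*. The *htb1-D67N*, *htb1-E34K*, *htb1-E112K* and *htb1-E75Q* strains were *h*+ with *ade6-M210*, *leu1-32* and *ura4-D18* and carried *kanMX6* beside the mutant allele, which the WT strain lacked. The *htb1-G52D* and *htb1-P102L* strains were listed as *h*- *leu1-32 ura4-D18* with an unknown *ade6* allele and no marker. Every strain shared *leu1-32* and *ura4-D18* where its genotype was listed, and each H2B mutant was listed as a single strain. Cultures were grown at 30 °C, and 3 independent repeats were sequenced. Marker counts, given below, differed among the libraries of WT, of *htb1-G52D* and of *htb1-P102L*. Whether the repeats of these genotypes were of a single strain is therefore not known. For the libraries labelled *set1*Δ, the titles give a deletion and the genotype field a knockdown. The strain list holds an *h*+ *leu1-32 ura4-D18 set1*Δ::*kanMX6* strain, but the study names these libraries by differing strain numbers, so that genotype was not taken as theirs. H2B is encoded in this yeast by 1 gene, *htb1*.

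Ribosomal proteins assemble with rRNA into a small subunit that decodes mRNA and a large subunit that joins amino acids. The P stalk, made of Rpp0 with dimers of the P1 and P2 proteins, sits on the large subunit and recruits the translation factors that hydrolyse GTP. Growing yeast cells spend much of their transcription on these genes, which are adjusted together to growth rate and nutrients through TORC1 signalling, and most fission yeast ribosomal proteins are encoded by more than 1 gene copy. Among the members, 117 fell into 56 families that shared a KEGG orthologue, 51 of 2 copies and 5 of 3 copies, and 21 had no second copy. The members were short, with a median exonic length of 605.5 bases against 1682 over all genes matched to RefSeq, and richer in G and C (median 44.2% against 37.2%). An intron was annotated in 75 members.

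Fission yeast ribosomal protein promoters are known for the HomolD box, CAGTCACA, which takes the place of a TATA box, and for the HomolE box, whose core was searched as CCCTACCC. Both strands were searched from 250 bases before to 50 bases after the annotated gene start (RefSeq ASM294v3, genes matched by locus tag). Neither motif contains the other. HomolD was found in 88 of 138 member windows (63.8%), against 2.68% of all 5104 windows of protein-coding genes, members included. Without the members it was 0.987%. The HomolE core was found in 49 (35.5%, against 1.59% of all windows and 0.644% without the members), and both in 27 (19.6%, against 0.647% and 0.121%). The first base of the HomolD matches lay at a median of 51 bases before the annotated start (quartiles at -57 and -47), with 62 matches on the coding strand and 30 on the opposite strand. The following 30-base stretches, read on the coding strand with the HomolD match or its reverse complement in capitals, belong to members whose values are given in the comparisons.
*rpl102*: ctatatagaaaCAGTCACAaagatagtaga
*rpl101*: tatttcttaaaTGTGACTGtcattctactg
*rpl2701*: catattaaaagCAGTCACAaagtttcgtgc
*rpl3002*: gtttggatttaTGTGACTGtttttcttgga
*rpl6*: ctaacacaacaTGTGACTGttctttttggg
*rpp203*: tcttgaaacgtTGTGACTGtctttttcgta
The genes lie on chromosomes II, III, II, I, III and I, and the matches begin 57, 56, 50, 55, 57 and 74 bases before the annotated starts. The windows of *rpl2702*, *rpl1603* and *rps1401*, other copies described with the families, held no exact HomolD match.

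The libraries held 18935513 to 28181070 counts each. Some went against their labels. The libraries labelled *set1*Δ held 336, 362 and 412 counts of *set1*, which encodes the H3K4 methyltransferase, against 20, 20 and 32 in WT, so the label was not borne out by this transcript. The table does not show whether reads came from a remaining part of the gene. Counts of *ura4*, which the *ura4-D18* strains lack, were 865 in WT replicate 3, 1382 in *htb1-G52D* replicate 1 and 712 in *htb1-P102L* replicate 1, and at most 2 in any other library. Counts of *mat1-Mc*, a gene of the minus mating type, were 103 in WT replicate 3 and 0 in replicate 3 of *htb1-G52D* and of *htb1-P102L*, against the listed mating types. Counts per gene cannot show a point mutation, so the *htb1* alleles were not checked. The *htb1* transcript had 15413 to 21152 counts in WT and 88025 to 238225 in the libraries of *htb1-D67N*, *htb1-E75Q* and *htb1-E112K*. For *htb1-G52D* and *htb1-P102L*, the shares, the counts of calls and some of the medians are therefore also given without the libraries that went against their labels. For the other genotypes WT replicate 3 was among the libraries left out in turn, and the fits without it are not given on their own.

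Per length of transcript, the members were among the highest transcripts of WT cells. Their median level was 3656 FPKM (fragments per kilobase of transcript, scaled to the library's mapped reads), against 3.93 over all genes, and 80 of the 100 genes with the highest mean FPKM in WT were members. The highest was *rpl13*, with 15052, 13446 and 16090 FPKM in the 3 WT libraries, followed by *rpl6* (mean 12982 ± 288 FPKM, SD, n = 3), *rpl801* (12276 ± 589), *rps2* (12206 ± 401) and *rps20* (10028 ± 251). The spread over libraries of *rpl801* and *rps2* exceeded the difference between them. The lowest were all extra copies of a family: *rps2202* (351, 315 and 159 FPKM), *rpl102* (82.0 ± 7.52), *rpl3002* (62.6 ± 4.22), *rpl3402* (29.4 ± 9.56) and *rpl1603* (11.1 ± 1.59). From *rpl13* to *rpl1603* the mean level fell 1339-fold. RefSeq gives *rpl1603* 2640 exonic bases, of which 594 are coding, and the length used for its FPKM bears on its place at the end of the order.

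The members took a smaller share of the counts in 6 of the 7 mutant genotypes than in any WT library. In WT, 40.6%, 40.1% and 40.7% of each library's counts fell in the 138 genes (mean 40.5% ± 0.334, SD, n = 3). The share was 28.6% ± 1.5 for *htb1-D67N*, 29.9% ± 1.13 for *htb1-E75Q*, 29.9% ± 1.63 for *htb1-G52D* and 31.3% ± 1.36 for *htb1-E112K*. It was 34.8% ± 1.51 for *htb1-P102L* and 37.6% ± 0.883 for the libraries labelled *set1*Δ. For these 6 genotypes every library lay below every WT library, and the exact two-sided permutation test gave p = 0.1 each, the smallest p that 3 against 3 libraries allow. In *htb1-E34K* the libraries held 37.4%, 40.2% and 39.5% (mean 39.0% ± 1.47), which overlapped WT (p = 0.2, exact permutation test), and the mean difference from WT went from -1.42 to -0.596 percentage points without *htb1-E34K* replicate 1. Without the libraries with *ura4* counts the means were 30.7% for *htb1-G52D*, 33.9% for *htb1-P102L* and 40.4% for WT, and without those that went against their mating type 29.9%, 35.3% and 40.4% (2 libraries each). These are shares of a total, so a lower amount of these transcripts and a higher amount of the others cannot be told apart, nor can a change in all cells from a larger change in some of them.

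**Figure D1:**
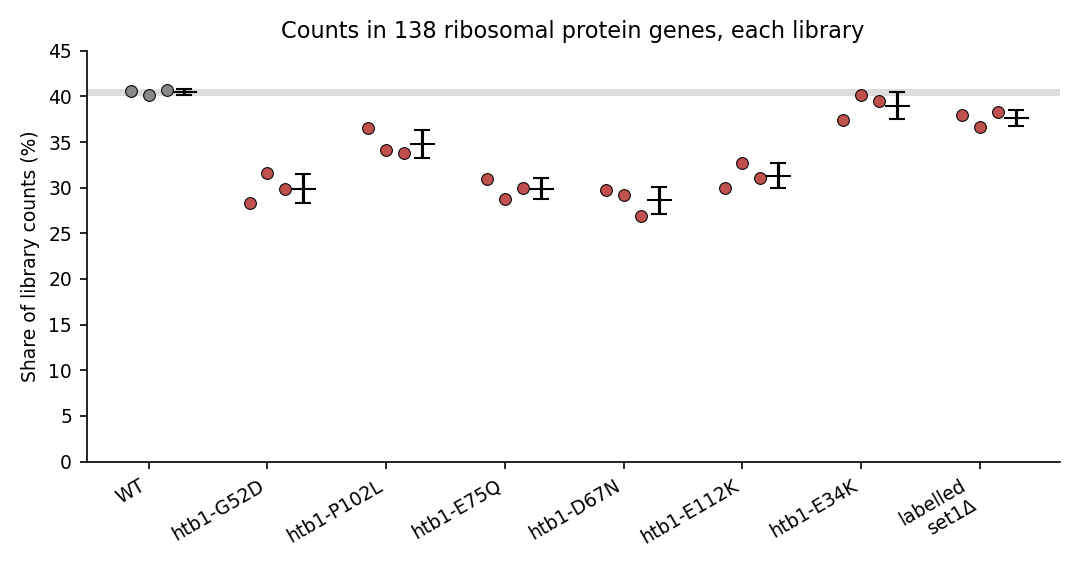
Share of each library's counts (%) that fell in the 138 ribosomal protein genes, by genotype. Points are libraries, the bar beside them is the mean ± SD (n = 3), and the grey band spans the 3 WT libraries, from 40.1% to 40.7%. All libraries of 6 mutant genotypes lie below the band, and 1 of the *htb1-E34K* libraries lies inside it.

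The balance of the subunits moved little. The ratio of large to small subunit counts was 1.4 ± 0.0489 in WT (SD, n = 3) and between 1.35 and 1.4 in the mutant genotypes. The 7 stalk genes, summed, took a smaller part of the members' counts in some genotypes. This sum is weighted towards *rpp0*, the stalk gene with the highest level by counts, and the part without *rpp0* was not tested. The 7 genes made up 3.66%, 3.83% and 3.93% of the members' counts in WT, and 3.01%, 3.19% and 3.4% for *htb1-E75Q*, 3.5%, 3.15% and 3.06% for *htb1-G52D* and 3.13%, 3.31% and 3.27% for *htb1-P102L*. In these 3 genotypes every library was below WT, so leaving out any library keeps that order.

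Fold changes per gene were taken from edgeR, in which libraries are scaled by TMM, a factor that sets the bulk of the genes to no change. A member was called where it changed by 2-fold or more with an adjusted p under 0.05. Relative to WT, the median log2 fold change of the 138 members was -1.06 for *htb1-G52D*, -1.04 for *htb1-E75Q*, -0.88 for *htb1-D67N*, -0.73 for *htb1-E112K*, -0.53 for *htb1-P102L*, -0.37 for *htb1-E34K* and -0.34 for the libraries labelled *set1*Δ, while the median over all tested genes lay between 0.01 and 0.09. The members moved as a narrow group, with an SD of their log2 fold changes between 0.15 and 0.29, against 0.6 to 0.95 over all genes. The members also had far higher levels than the median gene, and no set of genes matched for level was compared. How much of the narrow spread follows from high counts was therefore not tested. Scaling by total counts instead put the median of all genes at 0.21 to 0.77 and that of the members higher too, at -0.44, -0.44, -0.52, -0.39, -0.19, -0.01 and -0.12 in the same order. Relative to the median of all genes, the members stood at -1.15 in *htb1-G52D* by TMM and at -1.2 by total counts, and at -1.11 and -1.19 in *htb1-E75Q*. No member was called higher by at least 2-fold in any of the 8 comparisons, where DESeq2 also gave 0 and 2 members in all had an unadjusted p under 0.05 for a rise. The share of all tested genes called higher was 13.4% for *htb1-G52D*, 9.93% for *htb1-P102L*, 13% for *htb1-E75Q*, 10.8% for *htb1-D67N*, 7.96% for *htb1-E112K*, 0.103% for *htb1-E34K*, 5.16% for the libraries labelled *set1*Δ and 3.37% for *htb1-G52D* against *htb1-P102L*.

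**Figure D2:**
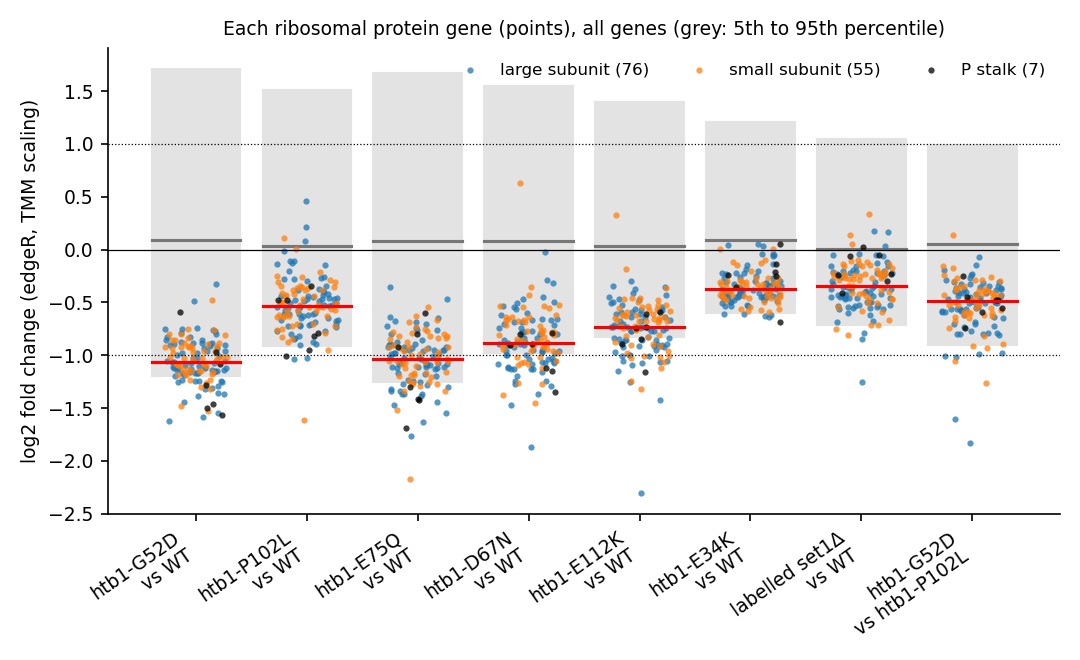
log2 fold change (edgeR, TMM scaling) of each of the 138 ribosomal protein genes in each comparison. Points are genes coloured by subunit, red lines are their medians, the grey bar spans the 5th to the 95th percentile of all tested genes with its median as a grey line, and dotted lines mark a 2-fold change. In *htb1-G52D* and *htb1-E75Q* the medians of -1.06 and -1.04 lie at the 2-fold line.

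Libraries of the same genotype differed in how far the members stood from WT. By TMM, the median member stood at -1.53, -0.74 and -1.01 in the 3 *htb1-G52D* libraries, on the log2 scale relative to the WT mean. In *htb1-E34K* it stood at -0.89, -0.46 and -0.01, and in WT itself at 0.08, 0.08 and -0.2. By total counts the libraries of a genotype lay close together, at -0.5, -0.38 and -0.42 in *htb1-G52D* and at -0.1, 0.07 and -0.03 in *htb1-E34K*. The TMM factors ranged from 0.703 to 1.534 over the 24 libraries, and the replicates of *htb1-E34K* alone had 1.299, 1.086 and 0.7472. By construction, the TMM and the total-count value of a library differ through its TMM factor, relative to the factors of WT. Why the factors differed between replicates was not tested.

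**Figure D3:**
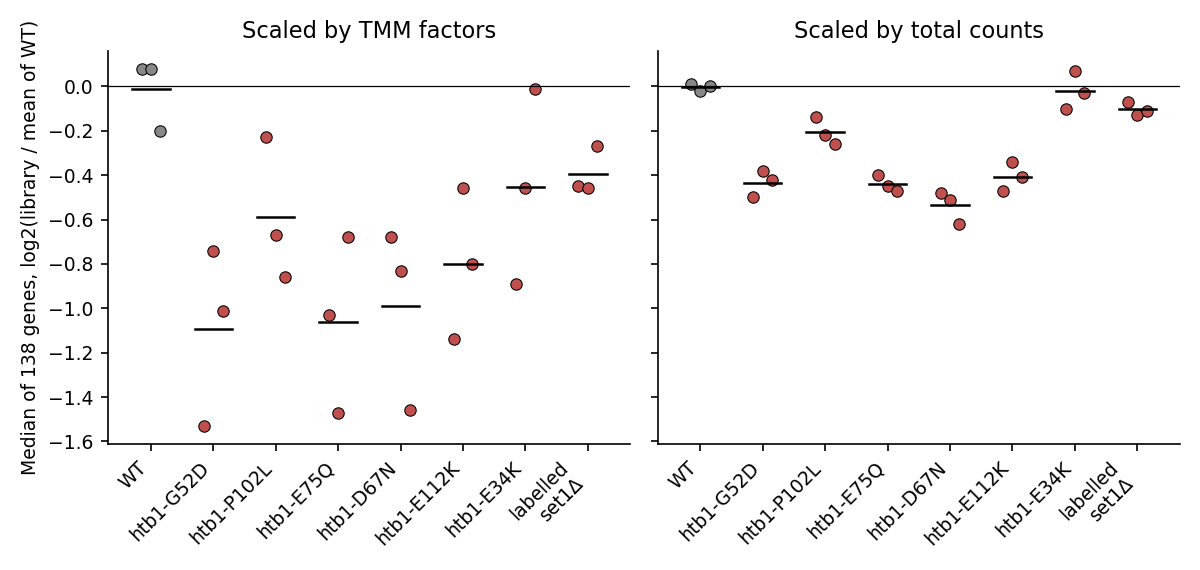
Median over the 138 ribosomal protein genes of the log2 ratio of each library to the WT mean, scaled by TMM factors (left) or by total counts (right). Points are libraries and lines are means of 3. With TMM the *htb1-G52D* libraries spread from -1.53 to -0.74, and with total counts from -0.5 to -0.38.

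In *htb1-G52D*, most ribosomal protein transcripts were about 2-fold lower than in WT. Of 138 members, 83 were called lower (60.1%, against 8.07% of all 4894 tested genes): 47 of 76 of the large subunit, 31 of 55 of the small subunit and 5 of 7 of the stalk. By the adjusted p alone, 131 were lower (94.9%, against 19.7% of all genes), and under total counts 103 were (74.6%, against 5.11%). The largest fall was that of *rpl3002*, the minor copy of the gene for the large-subunit protein L30. It had 52, 58.1 and 41.4 scaled CPM (CPM scaled by TMM over all 24 libraries) in WT and 12.8, 18.5 and 17.9 in *htb1-G52D*, with no overlap, a log2 fold change of -1.62 (SE 0.189, adjusted p = 0.000212). *rpl2702*, a copy for L27, had 2074, 1881 and 1493 scaled CPM in WT and 465, 728 and 632 in the mutant (log2 fold change -1.58, SE 0.236, adjusted p = 0.000764). *rpp101*, a copy for the stalk protein P1, had 1381, 1732 and 1042 in WT and 344, 578 and 482 in the mutant (-1.57, SE 0.263, adjusted p = 0.00142). All 3 mutant libraries were below all WT libraries for these genes. The smallest change was that of *rpl35b*, at -0.33 (SE 0.202, adjusted p = 0.211). The abundant *rpl13* fell by 1.1 on the log2 scale and *rpl6* by 1.12. Without *htb1-G52D* replicate 1, 33 members were called, and without the libraries with *ura4* counts 58 were (against 8.11% of all tested genes). Without those that went against their mating type 34 were called (against 6.26%), with a median of -1.16. Under total counts 0 of 138 passed the 2-fold threshold.

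In *htb1-E75Q*, 75 members were called lower (54.3%, against 8.48% of all 4868 tested genes): 43 of the large subunit, 28 of the small subunit and 4 of the stalk. By the adjusted p alone, 103 were lower (74.6%, against 16.6%), and under total counts 99 were (71.7%, against 5.3%). *rps1401*, the minor copy for the small-subunit protein S14, had 556, 357 and 413 scaled CPM in WT and 69.5, 66.9 and 160 in the mutant, the largest fall of any member in this genotype (log2 fold change -2.17, SE 0.354, adjusted p = 0.000543). *rpl2702* fell from 2074, 1881 and 1493 to 613, 394 and 607 scaled CPM (-1.76, SE 0.308, adjusted p = 0.000866), and *rpp101* from 1381, 1732 and 1042 to 418, 319 and 557 (-1.69, SE 0.319, adjusted p = 0.00146). None of the 3 overlapped WT. *rpl1801* and *rpl35b* changed least, at -0.47 and -0.35, and did not pass the test. The count of calls rested on single libraries: it was 24 without WT replicate 1, 37 without WT replicate 2, 37 without *htb1-E75Q* replicate 1, 34 without replicate 2 and 117 without replicate 3. It was 20 with a gene-length correction and 4 under total counts.

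In *htb1-D67N*, 41 members were called lower (29.7%, against 4.48% of all 4862 tested genes), 105 by the adjusted p alone (76.1%, against 15.4%) and 107 under total counts (77.5%, against 4.79%). The largest fall was that of *rpl1603*, the minor copy for L16, from 34.9, 43.1 and 38.5 to 10.2, 10.4 and 9.75 scaled CPM (log2 fold change -1.87, SE 0.144, adjusted p = 6.36e-06). *rpl1002*, for L10, which docks near the peptidyl transferase centre, had 3998, 4009 and 3376 scaled CPM in WT and 1572, 1414 and 937 in the mutant (-1.47, SE 0.238, adjusted p = 0.000976). Its coding sequence was 97.9% identical to that of *rpl1001*, so reads could be assigned to the wrong copy here and in the other genotypes. *rps2601*, for S26 at the mRNA exit channel, had 3098, 2744 and 2302 in WT and 1171, 1071 and 607 in the mutant (-1.45, SE 0.263, adjusted p = 0.0019). These groups did not overlap. *rps1401* was the only member with a positive value, 787, 733 and 448 scaled CPM against 556, 357 and 413 in WT, which overlapped (0.63, SE 0.243, adjusted p = 0.0645). Under total counts it was higher by the adjusted p (0.97, adjusted p = 0.00181). The count was 86 without *htb1-D67N* replicate 1, 17 without replicate 3, 26 with the gene-length correction and 5 under total counts.

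In *htb1-E112K*, 22 members were called lower (15.9%, against 2.34% of all 4915 tested genes), 85 by the adjusted p alone (61.6%, against 12.5%) and 86 under total counts (62.3%, against 3.26%). *rpl1603* had 7.42, 6.79 and 8.9 scaled CPM against 34.9, 43.1 and 38.5 in WT, the largest fall of any member in any comparison (log2 fold change -2.3, SE 0.157, adjusted p = 1.28e-05). *rpl1002* had 1130, 1693 and 1342 against 3998, 4009 and 3376 (-1.42, SE 0.209, adjusted p = 0.00106), and *rps1402*, the major copy for S14, had 2323, 4150 and 2921 against 8994, 8438 and 6606 (-1.32, SE 0.258, adjusted p = 0.00478). No mutant library reached the WT range for these 3 genes. *rps7* (-0.18), *rpl1101* (-0.3) and *rpl13* (-0.34) did not pass the test, nor did *rps1401*, at 0.33 (adjusted p = 0.397), which under total counts was higher by the adjusted p (0.63, adjusted p = 0.0309). The count was 11 without WT replicate 1, 10 without *htb1-E112K* replicate 1, 53 without replicate 2 and 12 without replicate 3, and 2 under total counts.

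In *htb1-P102L* the members were lower by less. Only 4 were called (2.9%, against 3.48% of all 4862 tested genes). This share was below that of all genes in this fit, but not without the libraries with *ura4* counts. By the adjusted p alone 50 were lower (36.2%, against 17.1%), and under total counts 46 were (33.3%, against 4.38%). The 4 were *rps1401*, *rpl302*, *rpl1002* and *rpp203*, a copy for the stalk protein P2. *rps1401* had 179, 107 and 141 scaled CPM against 556, 357 and 413 in WT (log2 fold change -1.61, SE 0.218, adjusted p = 0.000214). *rpl302*, a copy for L3 beside the peptidyl transferase centre, had 2143, 1641 and 1477 against 3904, 3923 and 3225 (-1.04, SE 0.209, adjusted p = 0.00243), and *rpl1002* had 2387, 1612 and 1470 against 3998, 4009 and 3376 (-1.03, SE 0.227, adjusted p = 0.00432). The coding sequence of *rpl302* was 96.3% identical to that of *rpl301*, with an identical run of 848 bases, so its counts are uncertain in the same way. The *rpl102* transcript rose by the adjusted p alone, from 104, 89.3 and 75.9 scaled CPM in WT to 135, 118 and 110, all above WT (0.46, SE 0.15, adjusted p = 0.0327). *rpl13* stood at -0.11 and did not pass the test. Under total counts 3 members were higher by the adjusted p, among them *rpl102* at 0.82 and *rpl3002* at 0.59. Leaving out single libraries gave 2 calls without WT replicate 1 or replicate 2, 8 without WT replicate 3, 20 without *htb1-P102L* replicate 1 and 1 without replicate 3. Without the libraries with *ura4* counts 34 were called (against 4.3% of all tested genes), with a median of -0.84. Without those that went against their mating type 3 were (against 3.63%).

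Compared directly, *htb1-G52D* had 6 members called lower than *htb1-P102L* (4.35%, against 3.39% of all 4928 tested genes), and 14 by the adjusted p alone (10.1%, against 9.4%). Under total counts 29 were lower (21%, against 2.72%). Most of the members' difference between the genotypes thus did not pass the test, although 137 of 138 had a negative value and the median was -0.49. Among the 6 were *rpl3002*, *rpl102*, *rps3001*, *rpl3402* and *rpl1202*, the last with a coding sequence 99.6% identical to that of *rpl1201* and so with uncertain counts. *rpl3002* had 12.8, 18.5 and 17.9 scaled CPM in *htb1-G52D*, against 56.1, 56.8 and 59.0 in *htb1-P102L* (log2 fold change -1.83, SE 0.152, adjusted p = 8.07e-05). *rpl102*, the minor copy for L1 of the L1 stalk, had 40.2, 43.2 and 38.3 in *htb1-G52D*, against 135, 118 and 110 in *htb1-P102L* (-1.6, SE 0.137, adjusted p = 0.000101). Neither gene overlapped between the genotypes. The count was 11 without *htb1-G52D* replicate 2, 2 without its replicate 3, 2 without *htb1-P102L* replicate 1, 2 under total counts, and 3 either with the gene-length correction or without the libraries with *ura4* counts. In the last of these fits 5.05% of all tested genes were called lower. The median was -0.27 without *htb1-P102L* replicate 1, -0.11 without the libraries with *ura4* counts, and -0.6 without those that went against their mating type. In that last fit 3 were called (against 1.82% of all tested genes).

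In *htb1-E34K* no member was called, with either threshold, by edgeR or DESeq2, and 1 had an unadjusted p under 0.05. The median of -0.37 became -0.19 without *htb1-E34K* replicate 1 and -0.62 without its replicate 3. Of all 4862 tested genes, 0% were called lower with the fold threshold and 0% without it. Under total counts 1 member was lower by the adjusted p alone (0.725%, against 0.267% of all genes). That member was *rpp0*, at -0.36 (adjusted p = 0.0365), which had 4414, 6070 and 8616 scaled CPM against 10541, 10960 and 10166 in WT, below WT in every library but with an adjusted p of 0.269 by TMM (log2 fold change -0.69, SE 0.314). The 3 *htb1-E34K* libraries stood apart from each other: *rpl13* had 10620, 11386 and 18160 scaled CPM, the last inside the WT range of 16840 to 19047.

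In the libraries labelled *set1*Δ, 1 member was called lower (0.725%, against 1.3% of all 4845 tested genes), 53 by the adjusted p alone (38.4%, against 11.7%), and 39 under total counts (28.3%, against 3.78%), where 5 others were higher. Members that changed fell by less than 2-fold but for *rpl1603*, which had 14.5, 14.7 and 17.4 scaled CPM against 34.9, 43.1 and 38.5 in WT (log2 fold change -1.25, SE 0.121, adjusted p = 6.88e-05). *rpl1002*, *rps2601*, *rpl3801* and *rps2502* followed, at -0.85, -0.81, -0.79 and -0.75, each past the adjusted p. Among the 5 that were higher under total counts were *rps1401*, *rpl1101*, *rpl3002* and *rps7*, at 0.56, 0.4, 0.39 and 0.27, and by TMM none of these 4 passed the test.

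The stalk genes differed among themselves. Mean levels in WT were 10556 scaled CPM for *rpp0* and 538 to 3354 for the others, so *rpp0* weighs most in their summed counts. In *htb1-G52D* the others ran from -1.57 to -0.59 on the log2 scale, around the median member at -1.06. In *htb1-E75Q* they ran from -1.69 to -0.6, around the median member at -1.04. *rpp0*, for the base of the stalk, fell by 1.5 on the log2 scale in *htb1-G52D* (SE 0.246, adjusted p = 0.00121) and by 1.42 in *htb1-E75Q* (SE 0.375, adjusted p = 0.0106). It had 3164, 4411 and 3575 scaled CPM in *htb1-G52D* and 3644, 2539 and 5656 in *htb1-E75Q*, against 10541, 10960 and 10166 in WT, with no overlap. *rpp203* was called lower in 5 genotypes, with log2 fold changes of -1.46 for *htb1-G52D*, -1.41 for *htb1-E75Q*, -1.15 for *htb1-D67N*, -1.16 for *htb1-E112K* and -1.01 for *htb1-P102L*. Its other P2 copy *rpp202* had 1418, 1582 and 1497 scaled CPM in WT and 721, 1305 and 957 in *htb1-G52D*, where it did not pass the test (-0.59, adjusted p = 0.0695). In *htb1-D67N* the same gene had 704, 622 and 358 and was called lower (-1.35, SE 0.243, adjusted p = 0.00178). The third P2 copy, *rpp201*, was called lower for *htb1-G52D* (-1.28), *htb1-E75Q* (-1.3) and *htb1-D67N* (-1.12). Of the P1 copies, *rpp101* was called lower in *htb1-G52D* and *htb1-E75Q*, *rpp103* in *htb1-G52D* (-1.08), and *rpp102* in none, with its lowest value at -0.97 in *htb1-G52D*.

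**Figure D4:**
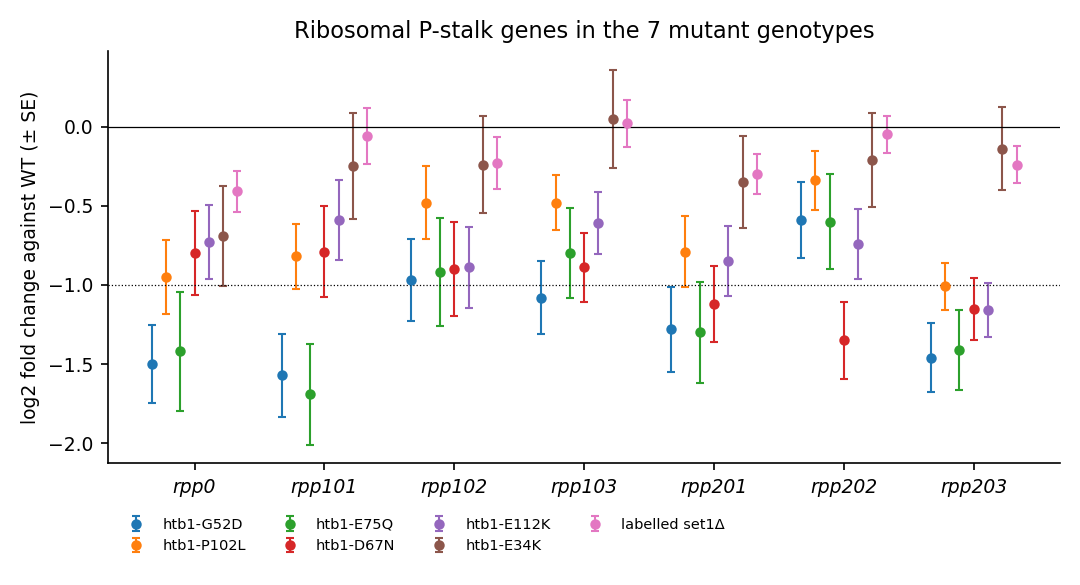
log2 fold change against WT (edgeR, ± SE) of the 7 ribosomal P-stalk genes, by mutant genotype. The dotted line marks a 2-fold fall. *rpp203* lies below it in 5 genotypes, while *rpp202* lies below it only in *htb1-D67N*, at -1.35.

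Copies of a family differed little in most families, as did the members at large. The difference in log2 fold change between the highest and the lowest copy of a family had a median of 0.235 for *htb1-G52D*, 0.275 for *htb1-E75Q* and 0.12 for *htb1-E34K*. Over all members the SD of the log2 fold changes was 0.22, 0.26 and 0.15 in the same order. Whether copies were closer to each other than to unrelated members was not tested. Of single members, 60.1% were called lower for *htb1-G52D* and 54.3% for *htb1-E75Q*. All copies were called lower in 17 of 56 families for *htb1-G52D*, 13 for *htb1-E75Q*, 8 for *htb1-D67N* and 0 for *htb1-P102L* and *htb1-E112K*, and at least 1 but not all in 32, 35, 21, 4 and 19. The copy with the highest FPKM in WT was also the highest in 53 or 54 of 56 families in each mutant genotype. The families that changed their order were *rpl20*, *rpl32*, *rpl5*, *rps0*, *rps15* and *rps24*, whose copies were within 1.25-fold of each other in WT. In WT the major copy held 44.8% to 99.6% of the family's FPKM (median 67.1%), over 80% in 10 families. Counts within a family do not depend on the scaling of the library, so the copy shares below are the same under TMM and total counts. The 4 families described were chosen for their differing copies, and their shares are given as a description.

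In the *rps14* family the copies diverged most. The coding sequences of *rps1401* and *rps1402* were 93.6% identical, with 101 bases in the longest identical run, and encoded the same protein, so reads could be assigned to the wrong copy. *rps1401* took 5.82%, 4.06% and 5.89% of the family's counts in WT, but 18.2%, 18.1% and 18.4% in *htb1-D67N*. In *htb1-E112K* it took 12.6%, 14.8% and 16.2%. It took 2.0%, 2.73% and 3.53% in *htb1-E75Q* and 2.61%, 2.59% and 3.84% in *htb1-P102L*, below every WT library. The *htb1-G52D* libraries, at 8.28%, 3.06% and 2.79%, lay on both sides of WT. The first of them is the library with *ura4* counts, and the other 2 lay below every WT library. All annotated exonic bases of *rps1401* overlapped another gene in the RefSeq annotation (*aar2*, with a mean of 236 counts in WT against 7732 for *rps1401*). Whether the counting used strand was not given in the sources used here. Such overlap was common: of the 138 members, 104 overlapped another annotated gene, 58 of them over more than 50% of their span. *rpl1002* was among those overlapped over 100%.

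Minor copies of other families moved apart from their partners in some genotypes. *rpl2702* took 33.1%, 31.6% and 31.5% of the *rpl27* family in WT, 20.9%, 17.6% and 15.8% in *htb1-E75Q* and 21.8%, 20.4% and 21.6% in *htb1-G52D*. The *htb1-P102L* libraries lay between, at 24%, 25.1% and 26.5%. In the annotation 100% of *rpl2702* was overlapped by another gene, SPNCRNA.1245, and 0% of *rpl2701*. In *htb1-E75Q*, *rpl2702* changed by -1.76 on the log2 scale while *rpl2701* stood at -0.64 (adjusted p = 0.142). For L1, *rpl102* was a small part of the family: 1.17%, 0.999% and 0.997% in WT, 2.04%, 2.4% and 2.48% in *htb1-P102L*, and 0.839%, 0.961% and 0.581% in *htb1-E75Q*. The *htb1-D67N* libraries, at 1.38%, 1.44% and 1.77%, also lay above WT. For L16, *rpl1603* took 0.447%, 0.502% and 0.609% in WT and less in every library of *htb1-D67N*, *htb1-E112K* and the libraries labelled *set1*Δ, with 0.2%, 0.115% and 0.178% in *htb1-E112K*. All exonic bases of *rpl1603* overlapped *apl1* in the annotation. *apl1* had a mean of 42.7 counts in WT against 677 for *rpl1603*, and its own log2 fold change was 0.62 in *htb1-E112K* and 0.58 in *htb1-D67N*, neither past the test.

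**Figure D5:**
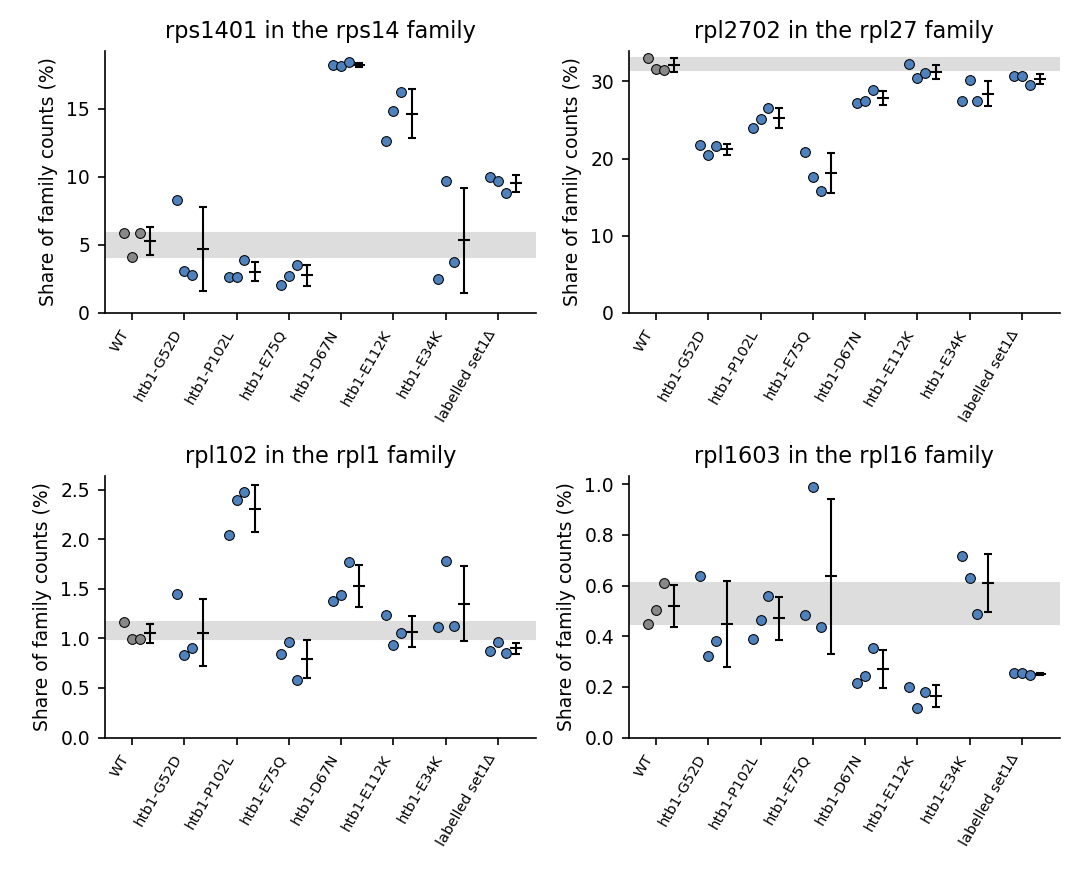
Share (%) of a family's counts taken by 1 of its copies, by genotype, for the 4 families with the largest differences between copies. Points are libraries, bars are the mean ± SD (n = 3), and the grey band spans the 3 WT libraries. *rps1401* lies above the band in *htb1-D67N*, *htb1-E112K* and the libraries labelled *set1*Δ, and *rpl102* lies above it for *htb1-P102L*, at 2.04% to 2.48%, and for *htb1-D67N*, at 1.38% to 1.77%.

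The copies for S6, the substrate of S6 kinase, had 7132, 8159 and 5945 scaled CPM for *rps601* and 8149, 8449 and 6945 for *rps602* in WT. Per length of transcript they differed more: *rps602* held 63.6% of the family's FPKM in WT, 1.75 times the level of *rps601*. In *htb1-G52D*, *rps601* had 1869, 3637 and 3130 and was called lower (log2 fold change -1.3, SE 0.295, adjusted p = 0.00661). There *rps602* had 3028, 5818 and 4581 and was lower by the adjusted p alone (-0.81, SE 0.285, adjusted p = 0.0429). In *htb1-E75Q* they stood at -1.29 (adjusted p = 0.0132) and -0.79 (adjusted p = 0.0951). Neither difference between the copies was tested.

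Members with and without a HomolD match did not stand apart in their fold changes. In *htb1-G52D* the median log2 fold change was -1.05 over the 88 members with a match and -1.06 over the 50 without, and in *htb1-E75Q* it was -1.05 and -1.0. With and without the HomolE core it was -1.03 and -1.08 in *htb1-G52D*. No match says only that these letters were not in the window searched.

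Genes around the ribosome were counted in the same fits. Of the 37 other genes of the pathway, most were for mitochondrial ribosomal proteins. For *htb1-G52D* 1 was called lower (against 8.07% of all tested genes), for *htb1-E75Q* 2 (against 8.48%) and for *htb1-D67N* 1 (against 4.48%). In the other comparisons with WT 0 were called lower, by DESeq2 also, where up to 10 had an unadjusted p under 0.05 for a fall. For *htb1-P102L* 1 was called higher (against 9.93%). In *htb1-G52D* against *htb1-P102L* 3 were called lower (against 3.39%). The median log2 fold change of the 37 was -0.28 for *htb1-G52D* and -0.34 for *htb1-E75Q*, both against WT. The ubiquitin fusion genes *ubi1*, *ubi3* and *ubi5*, which also encode ribosomal proteins but whose symbols kept them out of the 138, stood at -0.79, -0.61 and -0.68 in *htb1-G52D*, and none was called, with DESeq2 giving 0 and an unadjusted p under 0.05 for all 3. Of 7 translation elongation factor genes, 4 were called lower in *htb1-G52D* (against 8.07% of all genes) and 5 in *htb1-E75Q* (against 8.48%), by DESeq2 also. In the other 5 genotypes 0 were called, by DESeq2 also, with 0 to 4 at an unadjusted p under 0.05 for a fall. Under total counts 0 were called in any genotype, and without the libraries that went against their mating type 0 were called in *htb1-G52D*, where the median was -1.14. *tef3*, for elongation factor 3, stood at -1.58 and -1.26 in these genotypes, and *eft202*, a copy for elongation factor 2, at -1.27 and -1.3. Among 9 regulators linked to these genes, 1 was called lower in *htb1-E75Q* (against 8.48% of all tested genes). This was the transcription factor gene *sfp1*, from 39.2, 36.0 and 58.5 to 17.9, 13.6 and 22.3 scaled CPM (-1.33, SE 0.243, adjusted p = 0.0012). No other tested regulator was called in a comparison with WT, and for the libraries labelled *set1*Δ only 8 of the 9 were tested.

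Stress genes moved the other way in most of the H2B mutants, but not in the libraries labelled *set1*Δ. Of 10 genes of the core stress response, among them *ctt1* for catalase and *hsp9*, 10 were called higher for *htb1-G52D*, *htb1-P102L* and *htb1-E75Q*, 7 for *htb1-D67N* and 6 for *htb1-E112K*. The shares of all tested genes called higher were 13.4%, 9.93%, 13%, 10.8% and 7.96% in the same order. Under total counts 10, 10, 10, 9 and 6 were called, against 33.9%, 17.8%, 28.5%, 18.1% and 15.2% of all genes. Without the libraries with *ura4* counts 10 were called for *htb1-G52D* and 9 for *htb1-P102L*, and without those that went against their mating type 8 and 10. In *htb1-E34K* 0 were called, by DESeq2 also, with 1 at an unadjusted p under 0.05. Their summed level was 3157 to 3898 scaled CPM in WT, 9236 to 13010 for *htb1-G52D*, 9410 to 11144 for *htb1-P102L*, 9209 to 15923 for *htb1-E75Q*, 5191 to 7970 for *htb1-D67N* and 5601 to 8739 for *htb1-E112K*. It was 1817 to 4430 for *htb1-E34K* and 1416 to 1480 for the libraries labelled *set1*Δ. In the latter 3 were called lower (against 1.3% of all tested genes), and the median log2 fold change of the 10 was -0.52. All 10 were detected in every comparison. The range of *htb1-P102L* lay inside that of *htb1-G52D*. The part of the state that these genes report in the level of the members was not tested.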

How the data were processed

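Poly(A) RNA of 24 libraries was measured. The authors filtered reads with fastp, removed rRNA reads with Bowtie2, mapped the rest with HISAT2 (Ensembl release 45) and computed FPKM with StringTie. The deposited raw counts per gene were used for all tests, and the deposited FPKM of the authors (fragments scaled by transcript length and mapped reads) only to compare levels between genes. The submitters' processing notes also name RSEM and DESeq2, so which program made the counts is unclear, and its use of strand is not given in the sources used here. The authors' own fold changes and p-values, also in the tables, were not used. Groups came from the sample titles.

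Each mutant was compared with WT, and *htb1-G52D* with *htb1-P102L*, 3 libraries against 3, in edgeR 4.0.16 (R 4.3.3) with filterByExpr, TMM and the quasi-likelihood test, with Benjamini-Hochberg adjustment over all tested genes (0.05, and 2-fold for a call). Depth was 18935513 to 28181070 counts per library. Scaled CPM use 1 set of TMM factors over all 24 libraries. Shares were compared by exact permutation tests (SciPy 1.17.1). Copy identity, gene lengths and motifs were read from RefSeq ASM294v3 by locus tag, which matched 5105 of 5195 genes and all members. It may differ from the authors' build, so no coordinates are given.

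The members and gene lists were chosen with earlier results of these data known. Named members were the 3 called members with the largest fall and the 3 with the largest rise in each comparison, all stalk genes, the 5 highest and 5 lowest by WT FPKM, all copies of the 5 families that differed most, the S6 copies, and members called higher. Of the 5 families, 1 is not reported here, nor are its copies where another part of this rule takes them. Others that are named were chosen after their values were seen.

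The alternatives were total counts, TMM without pathway genes, DESeq2 1.42.0, fits with no filter or with a minimum of 10 counts per library, the replicate number as a block, 1 fit over all libraries, a gene-length correction (loess, span 0.5), each library left out, the libraries with *ura4* counts left out, and the adjusted p alone. Leaving out the libraries whose *mat1-Mc* counts went against the strain list was added after seeing the data, as were the shares and other gene lists under these settings. Same-numbered libraries did not deviate together (correlations from -0.197 to 0.241), so numbers were not taken as pairs.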

Additional observations from a re-analysis of the deposited data

How the results depend on the processing

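Under total counts the members called lower were 0 for *htb1-G52D*, 1 for *htb1-P102L*, 4 for *htb1-E75Q*, 5 for *htb1-D67N*, 2 for *htb1-E112K* and 2 for *htb1-G52D* against *htb1-P102L*, and the median log2 fold changes were -0.44, -0.19, -0.44, -0.52, -0.39 and -0.2, with -0.01 for *htb1-E34K* and -0.12 for the libraries labelled *set1*Δ. By the adjusted p alone the counts were 131, 50 (with 1 higher), 103, 105, 85 and 14 in the same order, and 53 for the libraries labelled *set1*Δ. The gene-length correction gave 20 for *htb1-E75Q*, 26 for *htb1-D67N* and 3 for *htb1-G52D* against *htb1-P102L*. Without the libraries with *ura4* counts, 34 were called for *htb1-P102L* (median -0.84, against 4.3% of all tested genes) and 3 between the mutants (median -0.11, against 5.05%). Leaving out those whose *mat1-Mc* counts went against the strain list was chosen after seeing the data. There 34 were called for *htb1-G52D* (against 6.26% of all tested genes) and 3 between the mutants (against 1.82%). The causes were not tested.

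Leaving out 1 library at a time gave 33 to 124 calls for *htb1-G52D*, 1 to 20 for *htb1-P102L*, 24 to 117 for *htb1-E75Q*, 17 to 86 for *htb1-D67N*, 10 to 53 for *htb1-E112K* and 2 to 11 for *htb1-G52D* against *htb1-P102L*, and the medians stayed negative in all of these fits. The median for *htb1-E34K* ran from -0.62 to -0.19. The replicate block gave 88, 4, 54, 45, 22 and 5 calls in the same order, 0 for *htb1-E34K* and 1 for the libraries labelled *set1*Δ. From FPKM, the share of the members for *htb1-D67N* differed from WT by -13.0 percentage points, and the share of *rpl1603* in its family for *htb1-E112K* by -0.102. Of 70 results on single genes, 0 reversed under any alternative, 55 lost their call under total counts, 16 with the length correction, 8 with the block and 31 in at least 1 fit without 1 library and 3 with a minimum of 10 counts in every library. None did so with DESeq2, with TMM without pathway genes, in 1 fit of all libraries or without the low-count filter. No member had under 145 counts in any library.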
